A study of Mus musculus with 101 samples.

Results

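Polycomb group proteins silence genes through chromatin, and PRC1.6, a variant of one of their complexes that PCGF6 defines, is known for holding germ-line and meiotic genes silent. The genes described here are 10 subunits of these complexes, chosen by symbol. They are Ezh2, Eed and Suz12 of the core of Polycomb repressive complex PRC2, Rnf2 and Ring1, the ubiquitin ligases of PRC1, and Pcgf6, L3mbtl2, Mga, Max and E2f6, which build PRC1.6. All 10 were found among the 15423 genes of the deposited table, across the female and male embryos, 3 generations and 3 doses.

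PRC2 methylates histone H3 at lysine K27 and PRC1 ubiquitinates histone H2A, and both marks go with gene silencing. PRC1.6 is brought to DNA by MGA and MAX, which bind E-boxes as a pair, and by E2F6, which binds E2F motifs. In the fetal gonad, female germ cells switch on Stra8, the retinoic-acid-induced gatekeeper of meiosis, and enter meiosis, whereas male germ cells stay out of it.

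The study measured RNA in primordial germ cells of mouse embryos of the OG2 strain, which carry an EGFP transgene driven by Pou5f1 sequences, after exposure of pregnant F0 dams to benzo[a]pyrene, a combustion product, or to its sesame oil vehicle. Gonads were taken at E13.5, and the sorted EGFP-positive cells of each embryo gave 1 library primed at the poly(A) tail. F1 embryos were those carried by dams dosed by mouth from E6.5 to E11.5, and F2 and F3 embryos descended, with no further dosing, from dams dosed from E6.5 to E15.5. The sort selects cells in which Pou5f1 sequences are active, and whether it took all germ cells alike was not analysed here.

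There were 48 female and 53 male embryos from 56 litters, and each group below shares the OG2 strain and the E13.5 stage. Litter here is the code before the point in the embryo names, a reading of those names that was not checked otherwise. The F1 females numbered 5 for vehicle, 2 at 0.033 mg/kg-day, 5 at 0.2 mg/kg-day and 5 at 2 mg/kg-day, and the F1 males 5, 2, 6 and 8 in the same order. The F2 groups held 6 vehicle embryos and 3 at each dose in either sex. The F3 females numbered 6 for vehicle, 4, 2 and 4 by rising dose, and the F3 males 6, 4, 4 and 3.

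On the mouse genome build GRCm38 (mm10), the PRC2 core genes lie apart, Ezh2 at chr6:47530139-47595341, Eed at chr7:89954654-89980983 and Suz12 at chr11:79993106-80034123. Of the PRC1 ligase genes, Rnf2 lies at chr1:151458004-151500955 and Ring1 at chr17:34020792-34024680. The PRC1.6 genes are Pcgf6 at chr19:47033617-47050906, L3mbtl2 at chr15:81663889-81688315, Mga at chr2:119897228-119969581, Max at chr12:76937269-76962201 and E2f6 at chr12:16810963-16839742, so only Max and E2f6 share a chromosome, far from each other.

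Whole reads could be recovered for 99 of the embryos, all but 2, and ran from 5004382 to 87240533 reads assigned to genes, with a median of 7789673. The 11 deepest libraries, from 21247642 reads upward, were all F1, with 5 females and 6 males, 3 of them vehicle embryos; the highest of the others held 12211582. Levels below are normalized counts, that is, read counts scaled to a common library size, which then summed to 758171 to 1594837 an embryo.

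All 10 members were detected in every embryo, and in each of the 99 with recovered reads 9 of them rested on at least 37 reads. Eed, the subunit that reads the PRC2 mark, had 978 to 25973 reads an embryo with a median of 1841. Ring1 was the exception, with 3 to 106 reads and a median of 12. Counting error may thus be a large share of its spread, a share that was not measured. The filter on low values, a mean of 0.5 or more in the fit, removed none of the 10.

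The deep F1 libraries also stood apart from the other F1 libraries in the levels of several members. Eed ran from 254 to 438 normalized counts in the 5 deep F1 females and from 168 to 284 in the other 12, and from 249 to 587 in the 6 deep F1 males and from 179.9 to 314 in the other 15. Pcgf6 ran from 59.4 to 76.1 in the deep females and from 35.8 to 57.3 in the others. L3mbtl2 ran from 5.58 to 7.60 in the deep females and from 9.89 to 15.6 in the others. Pcgf6 and L3mbtl2 thus did not overlap between deep and other F1 females, and Eed did so only at the edge. Suz12 had medians of 88.8 and 60.4 in those females, and Max medians of 21.6 and 15.9 in deep and other F1 males. Why these libraries differ was not tested, and results are given without them where that changed a member's call.

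Per kilobase of exon, Eed was the most abundant member in vehicle females at 98.8 ± 22.2 normalized counts per kb (mean ± SD, n = 17). Rnf2 followed at 41.2 ± 7.72 per kb, then the methyltransferase gene Ezh2 at 28.6 ± 3.45, Pcgf6 at 21.4 ± 3.69 and Suz12 at 13.2 ± 3.15. The DNA-binding subunits lay lower, E2f6 at 7.23 ± 1.86 per kb, Max at 4.63 ± 0.985 and Mga at 3.85 ± 0.854, and L3mbtl2 stood at 2.82 ± 0.728. Ring1 came last at 0.589 ± 0.269 per kb, so of the 2 catalytic PRC1 genes it was Rnf2 that carried nearly all of the RNA. Among neighbours in this order, Max and Mga did not differ beyond the larger of their SDs.

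In vehicle males the per-kb order was the same except that L3mbtl2, at 3.84 ± 0.652 per kb (n = 17), stood above Mga, at 2.76 ± 0.794. Eed led at 131 ± 54.8 per kb, ahead of Rnf2 at 34.3 ± 15.4, Ezh2 at 25.0 ± 7.0004, Pcgf6 at 22.2 ± 6.02 and Suz12 at 12.99 ± 6.24. E2f6 stood at 9.87 ± 1.75 per kb and Max at 8.87 ± 1.33, with Ring1 again last at 0.847 ± 0.442. The neighbours within the larger SD were Rnf2 and Ezh2, Ezh2 and Pcgf6, Suz12 and E2f6, and E2f6 and Max.

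The comparison of vehicle males with vehicle females asks how germ cells on the male and the female path differ without exposure. Of the 10 members, 4 were higher in males (Max, E2f6, L3mbtl2 and Eed) and 3 were lower (Mga, Rnf2 and Ezh2), while Ring1, Suz12 and Pcgf6 did not pass the test at an adjusted p of 0.05. Over all 13288 genes tested, 27.9% were higher and 28.6% lower in males, so a sex difference was common at this stage and the members' counts are to be read against those shares. The members' median male-minus-female difference was 0.18 on the log2 scale, beside 0.00193 over all genes. The differences below are in log2 of the normalized count plus 0.5, tested with limma.

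Max, the partner through which MGA and the MYC proteins bind DNA, showed the widest separation. Its normalized count ran from 5.90 to 12.6 in vehicle females with a median of 9.08, and from 13.1 to 23.5 in vehicle males with a median of 17.7. Every vehicle male lay above every vehicle female. The difference was 0.92 (SE 0.095, 95% interval 0.73 to 1.10, adjusted p = 1.56e-14), a level 1.89 times the female one. Over vehicle and exposed embryos together, 48 of the 53 males lay above every female and all 53 above the female median.

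Mga, the scaffold of PRC1.6, went the other way from its DNA-binding partner. Its normalized count ran from 32.7 to 79.7 in vehicle females with a median of 51.4, and from 23.96 to 66.7 in vehicle males with a median of 37.2. The ranges overlapped, with most females above most males. The difference was -0.49 (SE 0.13, adjusted p = 0.000569), or 1.41 times higher in females, and 49 of all 53 males lay below the female median.

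E2f6, the other DNA-binding subunit, had normalized counts of 10.03 to 26.1 in vehicle females with a median of 16.3, and of 16.2 to 31.8 in vehicle males with a median of 23.1. The groups overlapped, with the upper females inside the male range. The difference was 0.46 (SE 0.13, adjusted p = 0.00148), a level 1.38 times the female one, and 49 of all 53 males lay above the female median.

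L3mbtl2, which holds PRC1.6 together and compacts chromatin, ran from 5.99 to 17.3 normalized counts in vehicle females with a median of 10.1, and from 7.61 to 18.4 in vehicle males with a median of 15.2. Most males stood above most females, and 1 male, D3402.3 of F3, lay below all but the lowest female. The difference was 0.44 (SE 0.13, adjusted p = 0.00332), a level 1.36 times the female one, and 47 of all 53 males lay above the female median. Of the 3868 exon bases of L3mbtl2, 558 are shared with Chadl on the opposite strand, and whether reads were counted by strand is not stated. Chadl had 0.423 to 10.1 normalized counts in all 48 females with a median of 4.62 and 0 to 2.01 in all 53 males with a median of 0.692, so its level was the lower one in the sex where L3mbtl2 was the higher. Other members share exon bases with opposite-strand genes that were not found in the table under the symbols given here. Eed shares 261 of 2067 bases with E230029C05Rik, and Suz12 178 of 4373 with Gm26563. Rnf2 shares 158 of 3879 with Trmt1l, and Ezh2 92 of 2960 with Gm26625.

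Pcgf6, the subunit that sets PRC1.6 apart from other PRC1 complexes, had a normalized count of 35.3 to 63.2 in vehicle females with a median of 45.1, and of 33.5 to 80.9 in vehicle males with a median of 45.8. The ranges lay on top of each other. The difference was 0.03 (95% interval -0.16 to 0.22, adjusted p = 0.832), and 29 of all 53 males lay above the female median.

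Within the PRC2 core the subunits did not move as one. Ezh2 had 65.7 to 100.6 normalized counts in vehicle females with a median of 87.0 and 49.4 to 124 in vehicle males with a median of 67.6, a difference of -0.23 (SE 0.089, adjusted p = 0.0244). Eed had 124 to 306 in vehicle females with a median of 204 and 121 to 554 in vehicle males with a median of 249, a difference of 0.34 (SE 0.13, adjusted p = 0.0262). The scaffold Suz12 had 35.7 to 88.8 in vehicle females with a median of 56.6 and 36.0 to 156 in vehicle males with a median of 50.8, a difference of -0.08 (95% interval -0.32 to 0.15, adjusted p = 0.573). All 3 overlapped widely between the sexes, and 45 of all 53 males lay below the female median for Ezh2, 36 above it for Eed and 42 below it for Suz12.

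The calls of Eed and Ezh2 each rested on a few embryos. Eed did not pass without the F3 vehicle female D1344.3 (adjusted p = 0.0545), the F1 vehicle male C3774.3 (0.0744) or the F3 vehicle male D3402.3 (0.0692), nor with litter as a fixed block (0.0795; its alternatives ranged from 0.0112 to 0.0795). Ezh2 did not pass without the F1 vehicle male C4232.2 (0.0507) or the F3 vehicle male D3651.1 (0.0570), nor in the edgeR quasi-likelihood test (0.0743), the likelihood ratio test (0.0777) and a fit of the vehicle embryos alone (0.0574); its alternatives ranged from 0.00687 to 0.0777.

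Of the catalytic PRC1 genes, Rnf2 passed and Ring1 did not. Rnf2, the more abundant ligase gene per kb, had 107 to 207 normalized counts in vehicle females with a median of 164 and 70.0 to 327 in vehicle males with a median of 129. The highest value was that of 1 male, D3402.3 of F3, and most other males lay below the female median. The difference was -0.34 (SE 0.13, adjusted p = 0.0163), with 43 of all 53 males below the female median. Rnf2 did not pass in the edgeR quasi-likelihood test (adjusted p = 0.0907) or likelihood ratio test (0.0890), with a range of 0.00293 to 0.0907 over its alternatives.

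Ring1, its paralog, had 0.489 to 3.05 normalized counts in vehicle females with a median of 1.17 and 0.508 to 3.62 in vehicle males with a median of 1.54. The male-minus-female difference was 0.33 (95% interval 0.02 to 0.65, adjusted p = 0.0648), and 43 of all 53 males lay above the female median. It passed when any 1 of 5 vehicle embryos was left out, namely the F3 female D3651.2 (0.0230), the F1 males C3774.3 (0.0348) and C4232.2 (0.0484), and the F3 males D1388.1 (0.0255) and D3612.2 (0.0347). Over its alternatives the adjusted p ran from 0.0308 to 0.0920, under 0.05 in both edgeR tests (0.0383 and 0.0319), with litter as a random block (0.0308) and without the 11 deep libraries (0.0477), the last chosen after the data were seen.

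**Figure D1:**
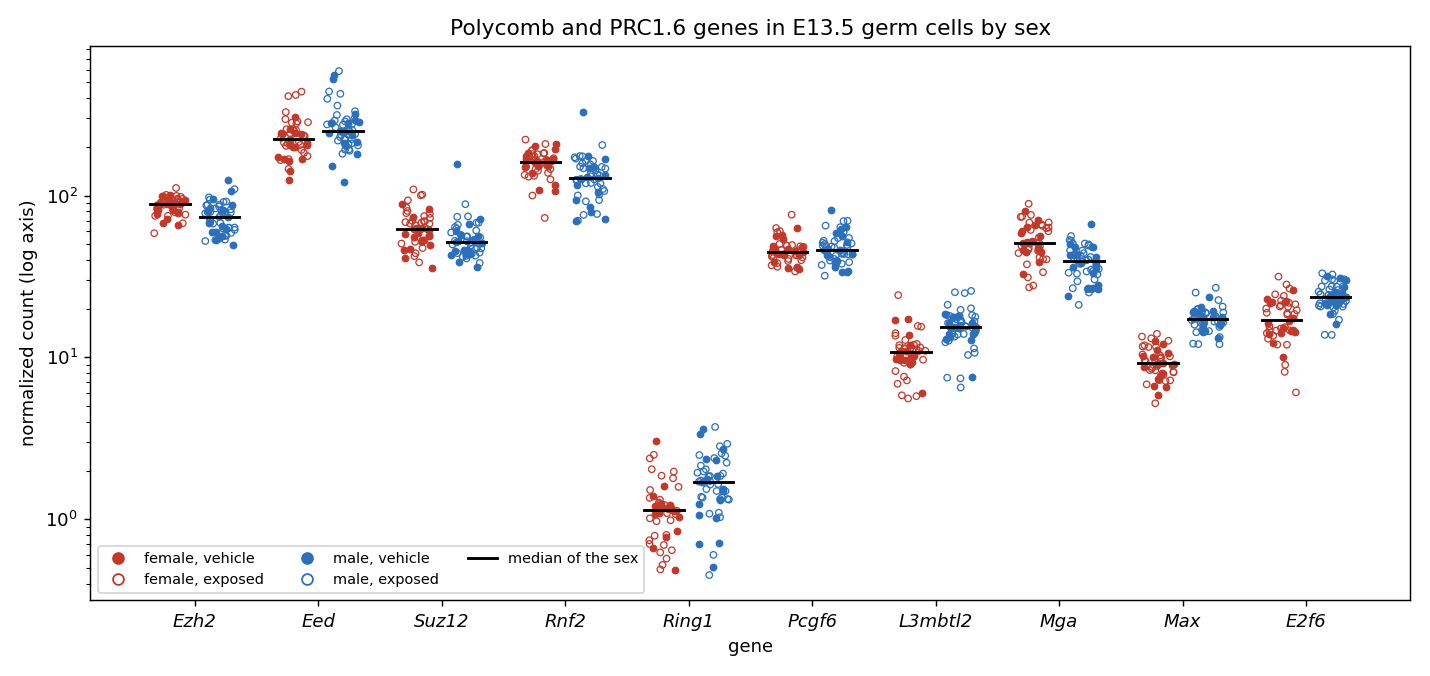
Normalized counts of the 10 members (log axis) in the 48 females (red) and 53 males (blue), 1 point an embryo, filled for vehicle and open for exposed, with a line at the median of each sex. Max separates the sexes almost fully, with 48 of 53 males above every female, while Pcgf6 does not.

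Littermates of opposite sex were also compared, as a description with no test. In 42 litters with both sexes, 15 of them vehicle litters, the mean of the males was above that of the females for Max in all 42, with a median male-to-female ratio of 1.91 and a range of 1.19 to 5.17. It was above for L3mbtl2 in 37 litters (median ratio 1.34), for E2f6 in 32 (1.41) and for Ring1 in 32 (1.49). For Mga the males were higher in 6 litters (0.718), for Ezh2 and Rnf2 in 9 each and for Suz12 in 10, so Suz12 and Ring1, not called in vehicle embryos, leaned to 1 side here too. Eed was higher in the males of 28 litters and Pcgf6 in those of 21, nearer an even split.

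Across the 12 pairs of male and female groups of 1 generation and dose, the male mean of Max was the higher in all 12 and that of Mga in 0. Ring1 was higher in males in 11 pairs, L3mbtl2 and E2f6 in 10 each, Eed in 9 and Pcgf6 in 8. Suz12 was higher in males in 2 pairs, and Ezh2 and Rnf2 in 1 each.

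In the vehicle embryos of each generation taken alone, Max was the member that passed in all 3. In F1 its normalized counts were 7.63, 6.58, 8.97, 9.08 and 10.7 in the females and 17.2, 23.5, 19.3, 15.8 and 14.6 in the males, a difference of 1.03 (adjusted p = 0.000187). In F2 it ran from 5.90 to 12.6 in females and from 15.8 to 20.4 in males (0.97, adjusted p = 1.59e-05), and in F3 from 6.66 to 12.1 and from 13.1 to 19.3 (0.77, adjusted p = 0.000863). The sexes did not overlap in any of the 3 generations.

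Of the 10 members, 2 passed in F1 (Max and Mga), where 23.8% of all genes did, 4 in F2 (Max, L3mbtl2, Mga and E2f6), where 41.1% did, and 1 in F3, where 32.2% did. At an unadjusted p under 0.05 the counts were 3, 5 and 3, beside 4787 of 13635, 6398 of 13083 and 5519 of 13139 genes, so the members lay near or below that background. Mga in F1 had 70.9, 65.8, 58.3, 60.6 and 38.7 normalized counts in the females and 26.8, 48.4, 50.5, 36.0 and 26.5 in the males (-0.66, adjusted p = 0.0229), so only the lowest female reached into the male range. In F2 its females ran from 44.9 to 79.7 and its males from 27.0 to 43.0, with no overlap (-0.62, adjusted p = 0.00427). In F3 the Mga difference was -0.22 (adjusted p = 0.550). L3mbtl2 passed in F2 (0.53, adjusted p = 0.00636), and E2f6 passed there too (0.47, adjusted p = 0.0318). In F1 the sexes did not overlap for L3mbtl2 either, with 5.99 to 11.9 in females and 12.8 to 15.4 in males, but the difference of 0.52 did not pass (adjusted p = 0.219).

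Several of these calls within a generation changed with 1 embryo or with litter as a block. Mga in F1 did not pass without the female C4232.9 (adjusted p = 0.0689) or C4321.6 (0.0585), or without the male C3774.3 (0.0719) or D2580.2 (0.0807), nor without the deep libraries (0.0837) or in a fit of the vehicle embryos alone (0.0543), over a range of 0.00508 to 0.0837. Without C3774.3, Ezh2 (0.0477) and Rnf2 (0.0393) passed in F1. E2f6 in F2 did not pass without the females C4988.3 (0.0677), D2991.1 (0.0701) or D3001.2 (0.0944), or the males C4988.2 (0.0827) or D2996.2 (0.0507). Ring1 in F2 (0.61, adjusted p = 0.0582) passed in both edgeR tests (0.0356 and 0.0227, over a range of 0.0227 to 0.101), and without the female D3133.2 (0.0341) or the males D2991.3 (0.0401) or D3133.5 (0.0278), and Rnf2 in F3 passed without the male D3402.3 (-0.44, 0.0284).

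Males and females shared litters, and with litter as a random block more members passed, 5 in F1 and 3 in F3, as did more genes at large, 4774 of 13635 in F1 and 5161 of 13139 in F3. In F1 these were Ezh2 (adjusted p = 0.0466, over a range of 0.0466 to 0.303), Rnf2 (0.0114, over 0.0105 to 0.126) and E2f6 (0.0467, over 0.0467 to 0.186). In F3 they were Eed (0.0400, over 0.0400 to 0.141) and E2f6 (0.0365, over 0.0365 to 0.0830). With litter as a fixed block Rnf2 passed in F1 (0.0105) and Eed in F3 (0.0463).

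Whether the sex difference itself differed between generations was tested in 1 fit, a test chosen after the data were seen. It called 0 of 13288 genes with limma (120 at an unadjusted p under 0.05, other tools not run), and none of the members (unadjusted p from 0.281 to 0.973). The members called in one generation and not in another were therefore not shown to differ between them.

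The comparison of the 36 exposed males with the 31 exposed females used embryos that the vehicle comparison does not. Of the members, 4 were higher in males and 4 lower, where 33.8% of all genes were higher and 33.6% lower, and the members' median difference was 0.09 beside 0.00344 over all genes. Max differed by 0.82 (adjusted p = 1.39e-19), E2f6 by 0.48 (4.70e-06), L3mbtl2 by 0.48 (8.25e-06) and Ring1 by 0.43 (0.000604). Mga differed by -0.42 (3.80e-05), Suz12 by -0.31 (0.000865), Rnf2 by -0.31 (0.00232) and Ezh2 by -0.27 (0.000176). Eed (0.14, 0.208) and Pcgf6 (0.05, 0.539) did not pass.

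Whether the exposure difference of females differed from that of males was tested directly. No gene passed with limma (0% of 13288 genes, 261 at an unadjusted p under 0.05, 7 in the edgeR quasi-likelihood test and 4 in the likelihood ratio test), and no member passed. Of the members, Suz12 had the largest of these values, a female-minus-male difference of 0.23 (adjusted p = 0.999). So Suz12 and Ring1, which passed in exposed and not in vehicle embryos, and Eed, which did the reverse, were not shown to differ between those settings.

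The sorted cells were checked against markers of the cells a gonad holds. The 7 germ cell markers summed to 1111 to 2303 normalized counts in vehicle females (median 1885) and to 1750 to 3998 in vehicle males (median 2578), with Dppa3 the most abundant, and none of the 7 was at 0 in any vehicle embryo. Of these, 4 were higher and 2 lower in vehicle males, with Nanos3 at 0.95 (adjusted p = 3.84e-05), Dppa3 at 0.57 (4.53e-05) and Tfap2c at -0.90 (6.73e-05), and the list's median difference was 0.45.

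The 5 Sertoli cell markers summed to 0 to 1.40 in vehicle females (median 0.531) and to 20.7 to 993 in vehicle males (median 506). All 5 were higher in males, with a median difference of 3.15. Cst9, the most abundant in males, ran from 0 to 0.392 in vehicle females, 9 of the 17 at 0, and from 18.6 to 762 in vehicle males (9.04 on the log2 scale); Ptgds differed by 6.64 and Sox9 by 3.15. RNA of these markers thus moved with sex, and its part in the members' sex differences was not tested. The study's last sorting gate was set to leave out somatic cells without EGFP. Which cells this RNA came from was not tested. The lowest Sertoli sums of all males were 20.7 in the F1 vehicle male C3774.3, which had 17.2 normalized counts of Max, and 22.4 in D1390.5, a 0.2 mg/kg-day male of F3, which had 12.1. In bulk samples such as these, fewer cells of a type and less RNA per cell cannot be told apart.

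The other marker lists, the endothelial one aside, had medians of 0.666 to 3.84 in vehicle embryos. The pregranulosa list, with Foxl2 not in the table, summed over its other 4 genes to 2.21 to 8.55 in vehicle females (median 3.84, most abundant Wnt4) and to 1.36 to 11.5 in vehicle males (median 2.96, most abundant Rspo1), and of the 3 tested 1 was lower in males, Wnt4 (-1.08, adjusted p = 7.46e-06). The 2 endothelial markers in the table, of 4 listed, summed to 12.8 to 56.6 in vehicle females (median 31.8) and to 14.2 to 33.8 in vehicle males (median 24.7), nearly all of it Pecam1 (-0.43, adjusted p = 0.0369), with Kdr at a median of 0. The 5 stroma markers had medians of 0.666 and 1.27, the 4 macrophage markers, led by C1qa, 1.31 and 1.21, and the 4 erythroid markers, led by Hba-a1, 0.701 and 1.10. Some vehicle embryos stood far above that erythroid median, the males D1388.1 at 2990, D2991.3 at 833, D2580.2 at 564 and C4992.2 at 42.8, and the female D2991.1 at 126. None of the 1, 2 and 2 genes tested of these 3 lists passed in vehicle embryos. In exposed embryos both erythroid genes tested were lower in males, Hba-a1 (-2.09, adjusted p = 0.0144) and Hbb-b1 (-1.43, 0.0198), as were the stroma gene Col3a1 (-0.51, 0.0161), Wnt4 (-1.13, 2.39e-10) and Pecam1 (-0.36, 0.0136), while all 5 Sertoli markers were higher (median 2.93). Of the germ cell markers 5 were higher and 2 lower there. Hbb-b1 and Col3a1 were chosen after their values were seen. The endothelial sums rested on Pecam1 nearly alone, and which cells its RNA came from was not tested. The part of these lists in the members' sex differences was not tested.

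Genes whose products work with the members were compared as well. Of 9 PRC2 partners tested, 1 was higher and 3 lower in vehicle males (median -0.22), where 27.9% and 28.6% of all genes were. Phf19, which brings PRC2 to chromatin, had 18.5 to 54.4 normalized counts in vehicle females and 2.93 to 8.12 in vehicle males, with no overlap (-2.51, adjusted p = 1.25e-24), a far wider gap than that of any PRC2 core gene. Mtf2, its paralog, was higher in males (0.39, adjusted p = 0.000284), and AU022751, the mouse gene for the PRC2 inhibitor EZHIP, was lower (-0.78, 0.000350). AU022751 lies on chromosome X, and the part of X copy number in its sex difference was not tested. Of 10 PRC1.6 partners, 0 were higher and 4 lower (median -0.23), among them Yaf2 (-0.83, adjusted p = 5.02e-07), the deacetylase gene Hdac2 (-0.40, 7.62e-06) and Tfdp2, a dimer partner of E2F factors (-0.27, 0.0169).

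Stra8 itself marked the female path. Its normalized count ran from 62.9 to 743 in vehicle females with a median of 450.5, and from 0 to 14.1 in vehicle males with a median of 1.23, a difference of -7.40 (SE 0.44, adjusted p = 1.85e-28). Of all 48 females, 46 lay above every male in Stra8. The lowest females, at 9.12, 11.4, 29.2, 35.7 and 40.7, were all exposed F3 embryos, the last 2 at 0.2 mg/kg-day. Over all 48 females Stra8 spread from 9.12 to 882 with a median of 397, so females of 1 stage differed widely in it. The relation of each member to Stra8 was therefore taken within females, as the slope of the member on Stra8, both on the log2 scale, with the 12 generation-by-dose groups as a term.

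Of the 10 members, 2 rose with Stra8 (Mga and Rnf2) and 3 fell (E2f6, Max and Eed), where 22.2% of 13041 genes had a positive and 19.4% a negative slope past the test. The members' median slope was -0.04, beside 0.00527 over all genes. Max, E2f6 and Eed, higher in vehicle males, fell with Stra8 among females, and Mga and Rnf2, lower in vehicle males, rose. L3mbtl2, higher in vehicle males, and Ezh2, lower, did not pass for Stra8 (adjusted p = 0.149 and 0.237). The share of all genes whose sex difference and slope pair in this way was not counted, so the pairing is not shown to be particular to the members.

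E2f6 had the steepest slope, -0.18 (SE 0.039, adjusted p = 0.000306). Over the 48 females its Pearson r with Stra8 was -0.630 and its Spearman rho -0.745, each with a permutation p of 1e-05, the smallest that the permutations can give. The value of r was -0.692 without the 2 females farthest from the median Stra8 on the log2 scale. It was -0.617 in F1, -0.805 in F2, -0.646 in F3 and -0.728 in vehicle females. E2f6 was thus the lower where Stra8 was the higher in every generation.

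Max had a slope of -0.11 (SE 0.034, adjusted p = 0.00945). Its r was -0.563 (permutation p = 5e-05) and its rho -0.563 (4e-05), with -0.458 without the 2 farthest females, -0.425 in F1, -0.450 in F2, -0.782 in F3 and -0.562 in vehicle females. The female of lowest Stra8, D3501.3 of F3 at 0.033 mg/kg-day with 9.12 normalized counts, had 14.0 of Max, above the lowest vehicle male. The next lowest, E0103.2 of F3 at 2 mg/kg-day with 11.4 of Stra8, had 13.1 of Max. On the log2 scale these are the 2 females farthest from the median Stra8.

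Mga had a slope of 0.14 (SE 0.039, adjusted p = 0.00390). Its r was 0.521 (permutation p = 0.00013) and its rho 0.532 (0.00013), with 0.430 without the 2 farthest females, 0.438 in F1, 0.129 in F2, 0.576 in F3 and 0.342 in vehicle females. E0103.2 had 27.1 normalized counts of Mga and D3501.3 had 40.3, both below the vehicle female median of 51.4. In F2 the relation was weak.

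Rnf2 had a slope of 0.08 (SE 0.032, adjusted p = 0.0495). Its r was 0.415 (permutation p = 0.00428) and its rho 0.483 (0.00069), with 0.413 without the 2 farthest females, 0.418 in F1, 0.267 in F2, 0.720 in F3 and 0.530 in vehicle females. Its slope did not pass in 32 of the 48 fits that left out 1 female, whose adjusted p ran from 0.0286 to 0.138, so it sits at the threshold. Nor did it pass with a pseudocount of 0.1 (0.0502), with upper-quartile scaling (0.0540), without the deep libraries (0.0564) or in vehicle females alone (0.0647), over a range of 0.00842 to 0.0647.

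Eed had a slope of -0.11 (SE 0.039, adjusted p = 0.0260). Its r was -0.376 (permutation p = 0.00848) and its rho -0.337 (0.0198), but r was -0.226 without the 2 farthest females, -0.464 in F1, 0.0198 in F2, -0.606 in F3 and -0.0171 in vehicle females. The relation of Eed thus rests in part on those 2 females and was near 0 in F2 and in vehicle females. Its slope did not pass without E0103.2 (adjusted p = 0.146), D2549.1 (0.0606), D3501.3 (0.0625) or D3526.1 (0.0519).

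L3mbtl2 had a slope of -0.08 (adjusted p = 0.149), r -0.350 (permutation p = 0.0158) and rho -0.369 (0.0107), with -0.364 without the 2 farthest females and 0.00895, -0.710 and -0.416 in F1, F2 and F3. It passed without the F1 female D2587.1 at 2 mg/kg-day (adjusted p = 0.0476) and with no group term (0.0282, the lowest of its alternatives, which reached 0.250). The slopes of Suz12 (-0.06, adjusted p = 0.235), Ezh2 (0.04, 0.237), Pcgf6 (-0.02, 0.596) and Ring1 (0.02, 0.7602) did not pass. Their r values were -0.237 (permutation p = 0.104), 0.169 (0.251), -0.0829 (0.577) and -0.0422 (0.774), and their rho values -0.298 (0.0396), 0.113 (0.445), -0.105 (0.476) and -0.130 (0.376). In F1, F2 and F3 the r of Suz12 was -0.515, -0.535 and -0.287, stronger in each than over all females, that of Ezh2 0.168, 0.183 and 0.280, that of Pcgf6 -0.154, 0.218 and -0.194 and that of Ring1 -0.355, -0.186 and 0.214. Without the 2 farthest females they were -0.237, 0.149, -0.0575 and -0.165. These were 10 relations in all, and the adjusted p of each slope is over all genes tested. In the 17 vehicle females alone E2f6 was the only member whose slope passed, where 1828 genes had a positive and 1449 a negative slope past the test. The slopes of Max (-0.16, adjusted p = 0.0980) and Rnf2 (0.15, 0.0647) were steeper there than over all females. That of Mga was 0.098 (0.297) and that of Eed -0.012 (0.924).

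**Figure D2:**
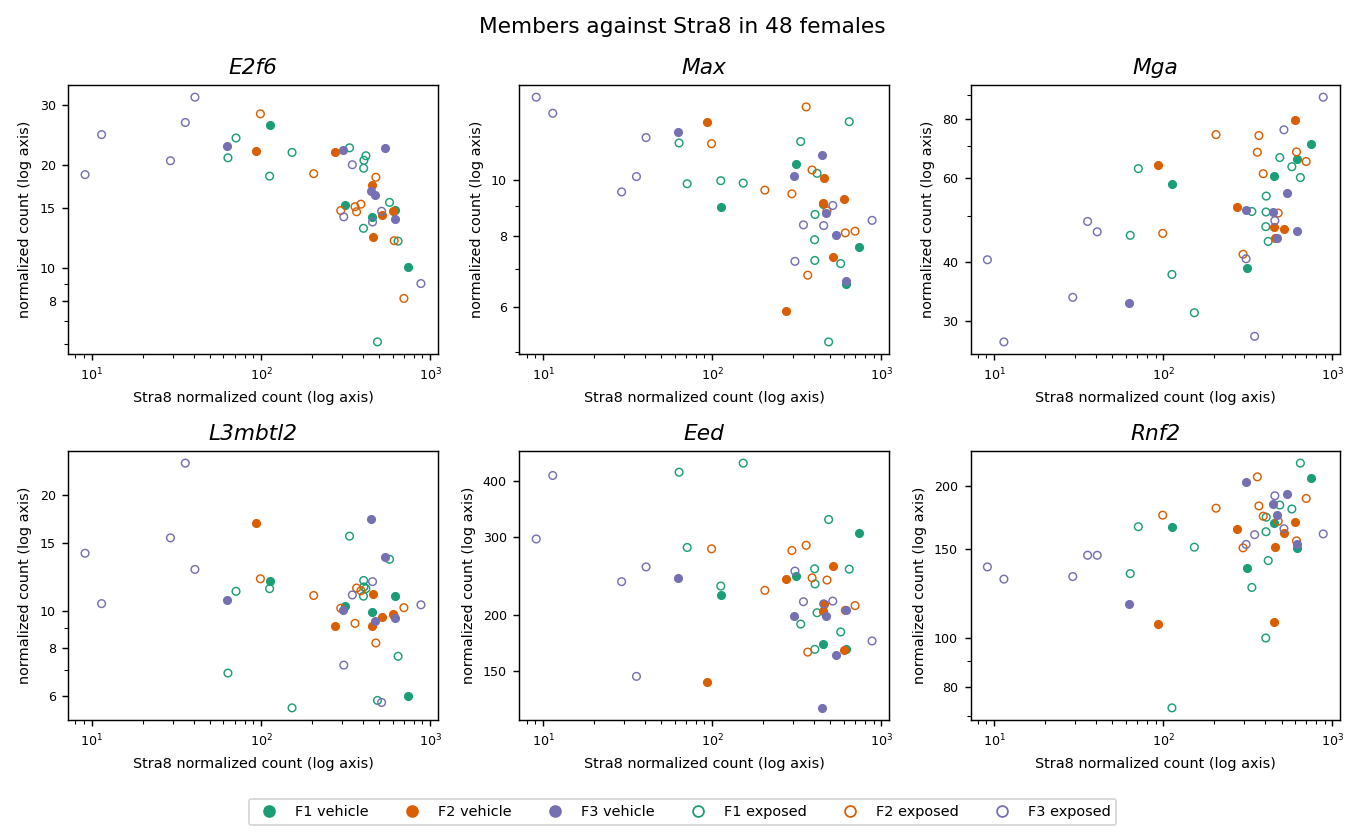
Normalized counts of 6 members against those of Stra8 in the 48 females, both on log axes, 1 point a female, coloured by generation and filled for vehicle. E2f6 and Max are lower, and Mga and Rnf2 higher, where Stra8 is high; the 2 females of lowest Stra8 are of F3.

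Markers moved with Stra8 as well. Of the 7 germ cell markers, 6 fell with Stra8 and 0 rose (median slope -0.21), where 19.4% of all genes had a negative slope past the test. Ddx4 and Dazl, which the paper uses as markers of later germ cells and which are listed here as targets, rose. Their slopes were 0.12 (adjusted p = 0.0107) and 0.18 (3.48e-05), and they were set beside this list after their values were seen. Of the 4 pregranulosa markers tested 2 fell. Pou5f1, whose sequences drive the EGFP used in the sort, had the steepest slope of the germ cell list (-0.33, adjusted p = 0.000683). It was named after its value was seen. Pecam1, the only gene tested of the endothelial list, fell (-0.22, adjusted p = 0.000334), and which cells its RNA came from was not tested. Of the stroma, macrophage and erythroid markers, 2 each tested, none passed. The erythroid sum was 609 in E0103.2, the female of next lowest Stra8. D3744.1, with 29.2 of Stra8, had the highest pregranulosa and stroma sums of all females, 28.8 and 30.9. D4021.1, with 35.7 of Stra8, had the highest endothelial sum, 81.7. The Sertoli markers were under the filter in females. The part of these markers in the members' relations with Stra8 was not tested.

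Among partners, 1 PRC2 partner rose with Stra8, AU022751 (0.33, adjusted p = 1.67e-08), and 2 fell, Mtf2 (-0.11, 0.000365) and Jarid2 (-0.11, 0.000536). Of the PRC1.6 partners 2 rose, Yaf2 (0.27, 1.94e-08) and Ehmt1 (0.08, 0.0375), and none fell. Jarid2 and Ehmt1 were chosen after their values were seen.

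The 15 germ-line genes listed as targets of PRC1.6 or E2F6, Stra8 among them, were compared in the same ways. In vehicle males 14 were lower and 0 higher (median -1.07). Smc1b, a meiotic cohesin gene, ran from 212 to 1366 normalized counts in vehicle females and from 75.4 to 309 in vehicle males (-1.97, adjusted p = 8.02e-15), Tex101 differed by -3.34 (2.21e-14) and the cohesin gene Stag3 by -0.82 (1.76e-10). Among females all 14 targets other than Stra8 rose with it, with a median slope of 0.35. Of the PRC1.6 members, E2f6 and Max went opposite to the targets in both comparisons and Mga went alongside them, while L3mbtl2 passed only in the sex comparison and Pcgf6 in neither.

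Promoters of these targets were searched for the motifs that the DNA-binding subunits are known to bind, the E-box CACGTG and the E2F motif GCGGGA with its reverse complement TCCCGC. Both strands of the 250 bases before each gene's start were read from RefSeq promoters of build GRCm38.p6. Of 32851 windows, 6.02% held CACGTG, 16.9% held the E2F motif and 1.45% held both. Of the 15 target genes, all matched in the promoter set, 10 held CACGTG, 5 the E2F motif and 4 both, and Stra8 held neither. These genes had 19 windows, and a gene was counted if any of its windows matched. Such counts of genes and the shares of windows above are unlike measures. A match is a description of the sequence, not a site that is bound and not a cause.

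The 4 target promoters with both motifs are shown because they carry the DNA words of MGA with MAX and of E2F6 in the same window. Each is on the strand of its gene with the motifs in capitals. They are those of Mael, chr1:166238872-166238977 on the minus strand, Hormad1, chr3:95559572-95559672 on the plus strand, Sycp3, chr10:88459430-88459559 on the plus strand, and Ddx4, chr13:112652324-112652456 on the minus strand.
Mael: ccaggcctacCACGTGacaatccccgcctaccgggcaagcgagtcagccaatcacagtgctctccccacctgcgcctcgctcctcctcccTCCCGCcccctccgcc
Hormad1: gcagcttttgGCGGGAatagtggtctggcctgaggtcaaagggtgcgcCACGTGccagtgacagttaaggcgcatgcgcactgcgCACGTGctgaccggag
Sycp3: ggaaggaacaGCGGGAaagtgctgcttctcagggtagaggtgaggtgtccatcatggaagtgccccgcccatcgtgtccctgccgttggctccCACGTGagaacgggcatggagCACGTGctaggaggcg
Ddx4: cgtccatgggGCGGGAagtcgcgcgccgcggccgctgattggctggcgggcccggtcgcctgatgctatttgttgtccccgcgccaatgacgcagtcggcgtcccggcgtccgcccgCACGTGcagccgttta

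The members' own promoters, all 10 matched, were searched the same way. None held CACGTG, and 3 held the E2F motif, Suz12, Rnf2 and E2f6. The stretches of Rnf2, chr1:151501204-151501229 on the minus strand, and of E2f6 itself, chr12:16810902-16810927 on the plus strand, are shown because these genes moved with Stra8 among females, with the motif in capitals.
Rnf2: aacctcagcaGCGGGAgggaaggcgc
E2f6: accggtgtgcGCGGGAgatctaacgg

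Exposure to benzo[a]pyrene was compared with vehicle at each dose in each sex, and the doses of 1 sex share their vehicle embryos. The labels do not name the F0 dam of F2 and F3 embryos, which may share one. Such sharing was not accounted for in these comparisons. No member passed in any of these comparisons, with the generations combined or apart. With the generations combined, limma called 181 genes, 1.36%, in females at 2 mg/kg-day and 0 genes, 0%, in females at 0.033 and 0.2 mg/kg-day and in males at every dose. At an unadjusted p under 0.05 the gene counts were 277, 140 and 3098 in females by rising dose and 621, 447 and 519 in males. By edgeR, quasi-likelihood and likelihood ratio tests called 10 and 28 genes in females at 0.033 mg/kg-day, 1 and 1 at 0.2 mg/kg-day, 12 and 141 at 2 mg/kg-day, 0 and 0 in males at 0.033 mg/kg-day, 8 and 7 at 0.2 mg/kg-day and 2 and 0 at 2 mg/kg-day. For the mean of the 3 doses limma called 0 genes in either sex (1152 and 151 unadjusted in females and males), and the edgeR tests called 1 and 4 genes in females and 4 and 1 in males.

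At an unadjusted p under 0.05 there were 2 members in females at 2 mg/kg-day and over all doses, Eed and Suz12, and 0 in every other comparison of combined generations. Over all 13288 genes the counts were 3098 at 2 mg/kg-day and 1152 over all doses, so 2 of 10 members at 2 mg/kg-day is near the background. Eed had 191 to 438 normalized counts in the 12 females at 2 mg/kg-day, with a median of 265, beside 124 to 306 in the 17 vehicle females, with a median of 204. The ranges overlapped, and 11 of the 12 exposed females lay above the vehicle median. The difference was 0.46 (95% interval 0.17 to 0.76, unadjusted p = 0.00233, adjusted p = 0.0637).

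By generation, Eed at 2 mg/kg-day was 418, 438, 284, 233 and 191 in F1 females, 210.2, 287 and 279 in F2 females and 251, 215, 214 and 411 in F3 females, with differences of 0.45, 0.36 and 0.51 and adjusted p values of 0.585, 0.810 and 0.306. Each generation thus had the same direction, and none passed alone. The 2 highest of these, 418 in C4219.4 and 438 in C4258.2, are deep libraries, and deep F1 libraries were high in Eed in other groups as well. Without the deep libraries the difference over the generations was 0.37 (adjusted p = 0.114). With the generations combined Eed passed when any 1 of 5 females was left out, D2587.1 (adjusted p = 0.0358), D1669.5 (0.0348) or D4190.2 (0.0361) of the exposed or C4232.9 (0.0392) or D2991.1 (0.0438) of the vehicle females, and under 2 alternatives, a minimum mean of 5 (0.0493) and these groups fitted alone (0.0392), over a range of 0.0392 to 0.114.

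Suz12 had 42.2 to 109 normalized counts in females at 2 mg/kg-day with a median of 73.2, beside 35.7 to 88.8 and a median of 56.6 in vehicle females. The groups overlapped through most of their range. The difference was 0.33 (95% interval 0.07 to 0.59, adjusted p = 0.110), and it passed without D4190.2 (0.0455). Among the other members the differences in these females lay from -0.21 for Mga upward, all with intervals that include 0.

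At 0.033 mg/kg-day the members' differences ran from -0.07 to 0.22 in females and from -0.17 to 0.14 in males. At 0.2 mg/kg-day they ran from -0.09 to 0.11 in females and from -0.06 to 0.16 in males, and at 2 mg/kg-day in males from -0.14 to 0.22. Max, the member that marked sex most sharply, had medians of 9.54, 8.46 and 9.88 normalized counts in exposed females by rising dose and of 16.3, 16.6 and 18.5 in exposed males. At every dose these stood with their own sex.

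**Figure D3:**
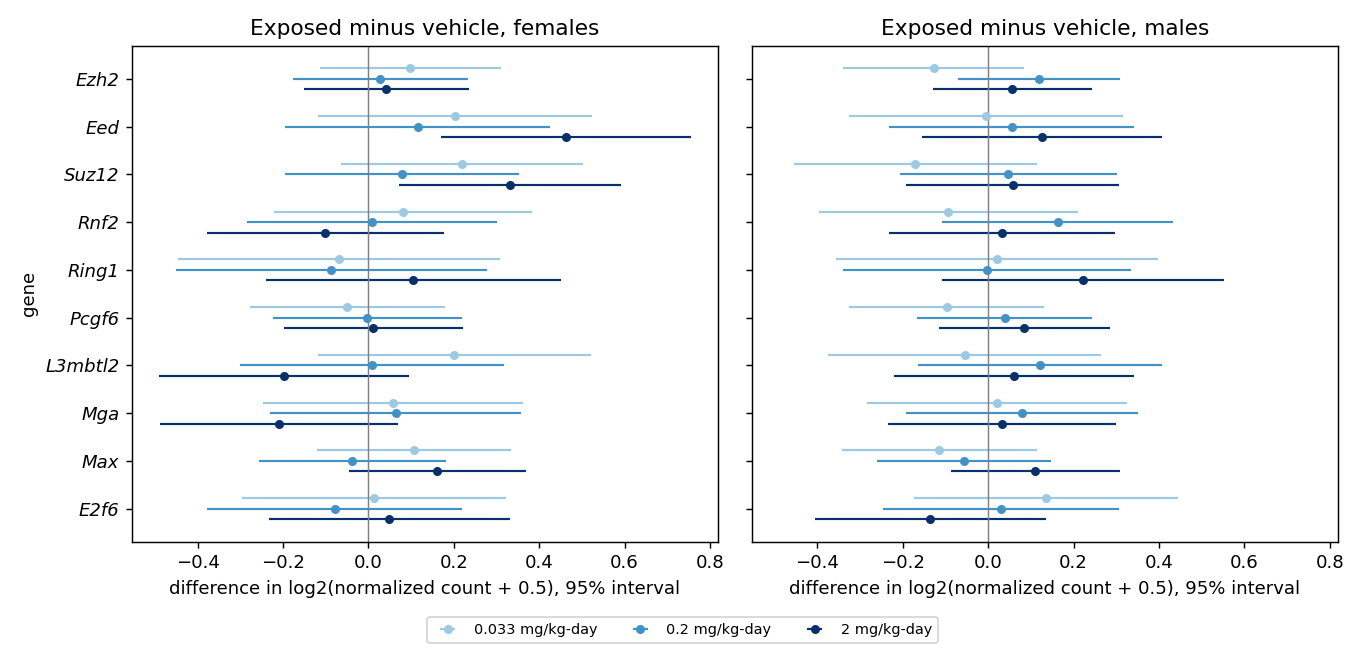
Exposed minus vehicle difference in log2 of the normalized count plus 0.5 for each member, with its 95% interval, at 3 doses in females (left) and males (right), generations combined. The intervals include 0 for every member except Eed and Suz12 in females at 2 mg/kg-day.

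Within generations, limma called 1 gene, 0.00733%, in F1 females at 2 mg/kg-day, 19 genes, 0.145%, in F2 males at 0.2 mg/kg-day, and 0 in each other comparison, none of them a member. At an unadjusted p under 0.05 those others had 25 to 2018 genes. The edgeR quasi-likelihood and likelihood ratio tests called 3 and 8 genes in F1 females at 2 mg/kg-day, 3 and 65 in F2 males at 0.2 mg/kg-day (where a fit of the compared embryos alone called 0) and 5 and 91 in F3 males at 0.2 mg/kg-day. The quasi-likelihood test called 0 in the rest, where the likelihood ratio test called 22 genes in F3 females at 0.033 mg/kg-day, 9 in F2 males over all doses, 3 in F2 males at 2 mg/kg-day, 2 in F3 females at 0.2 mg/kg-day and 1 each in F1 females at 0.2 mg/kg-day and in F3 females over all doses. At an unadjusted p under 0.05, and not past the adjusted threshold, were Suz12 in F2 females at 0.033 mg/kg-day (0.57) and over all doses (0.35), E2f6 in F2 females at 2 mg/kg-day (-0.44) and in F3 females at 0.2 mg/kg-day (0.62), and Eed in F3 females at 2 mg/kg-day (0.51). E2f6 thus had opposite signs in its 2 cases. The F3 group at 0.2 mg/kg-day held 2 females, both low in Stra8, at 35.7 and 40.7 normalized counts. In the order given, the gene counts at that unadjusted p were 444, 476 and 603 of 13083 in the F2 comparisons. In the F3 comparisons they were 1677 and 2018 of 13139, beside 1 of 10 members in each comparison.

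Stra8 in females at 2 mg/kg-day ran from 11.4 to 699 normalized counts with a median of 302, a difference from vehicle of -0.94 (adjusted p = 0.230). Of the lists, 1 target gene fell there, Stag3 (-0.43, adjusted p = 0.0481), and 1 germ cell marker rose, Dppa3 (0.51, 0.0481). The targets' median difference was -0.32, beside -0.02 over all genes and 0.05 over the members. None of the 10 PRC1.6 partners passed, with 6 at an unadjusted p under 0.05 and a median of -0.18. The erythroid markers summed to 0.136 to 950 in these females (median 1.52), highest in D2582.1 at 950 and E0103.2 at 609, beside 0 to 126 in vehicle females. The 2 erythroid genes tested did not pass there (median 1.56) or over all doses (median 2.15, both at an unadjusted p under 0.05), and their part in the values of Eed and Suz12 was not tested. The count of 181 genes was 0 without the 11 deep libraries, an alternative chosen after the data were seen, and 1 with generation as a term, and ran from 0 to 961 over all alternatives.

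The generations of vehicle embryos were compared within each sex. The limma test called 0 genes, 0%, in females and in males (136 and 414 at an unadjusted p under 0.05, other tools not run), and for the members the adjusted p was 1 in females and 0.999993 in males. No difference of a member between generations was detected.

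Within the 24 groups, after group means were removed, each pair of members was correlated over the 48 females and 53 males. Each pair shares its library's depth and cell mixture. Some pairs rose and fell together, some went opposite ways and others lay near 0. Max had an r from -0.170 to 0.186 with the other members, and Mga and Ezh2 had an r of 0.00620. Rnf2 and Ezh2 had an r of 0.722 (0.650 in females, 0.748 in males). Pcgf6 and Rnf2 had 0.645 (0.477 in females, 0.732 in males), and Suz12 and Eed 0.626 (0.595 and 0.648). The other PRC2 core pairs differed more between the sexes. Eed and Ezh2 had -0.0391 in females and 0.557 in males, and Suz12 and Ezh2 had 0.229 and 0.694. L3mbtl2 went against Eed, with an r of -0.655 (-0.627 in females, -0.675 in males), and against Suz12 (-0.525), and Ring1 against Rnf2 (-0.492). Without the deep libraries, in a repeat over 90 embryos chosen after the data were seen, r was 0.783 for Rnf2 and Ezh2, 0.646 for Pcgf6 and Rnf2, 0.569 for Suz12 and Eed, -0.529 for L3mbtl2 and Eed, -0.437 for L3mbtl2 and Suz12, and -0.436 for Ring1 and Rnf2. Ring1 rests on few reads, and none of these values was tested.

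The gene most like each member by the same measure, among 8476 genes with a mean of at least 5, was found outside the members. The closest was Arpc2 for Eed (r = 0.946), then Orc3 for Rnf2 (0.916), Kdm1b for Suz12 (0.839), Mcm7 for L3mbtl2 (0.820), Rnf14 for Pcgf6 (0.807), Gmps for Ezh2 (0.796) and 9930021J03Rik for Mga (0.794). E2f6 was most like Impa2 (0.724), Ring1 most like Snhg7 (0.612) and Max most like Epcam (0.591). Max and Ring1 thus had the least close companions.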

How the data were processed

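RNA-seq of sorted E13.5 germ cells was analysed from the table deposited by the authors, whose signal is in counts normalized by edgeR's TMM method; per the study's methods reads were trimmed with Trim Galore, aligned to mm10 with STAR and counted over exons. Groups follow the labels. The main test was limma 3.58.1 (empirical Bayes with a mean-variance trend, two-sided) in R 4.3.3 on log2 of the value plus 0.5, for genes with a mean of at least 0.5, with Benjamini-Hochberg adjustment over all genes tested and a threshold of 0.05. It used 1 fit of the 8 sex-by-dose groups, 1 such fit a generation, 24 groups for the generation tests, and Stra8 as a covariate with 12 groups in the 48 females. Litter was not a term of these fits and was tried as a block; embryo numbers were not treated as pairs. Whole reads were recovered by rescaling each column, where 100.0% of nonzero values came within 0.05 reads of a whole number, in 99 embryos; the F3 embryos D1388.3 (vehicle female) and D4190.1 (male, 2 mg/kg-day) were left out of the count tests with edgeR 4.0.16. Counts without molecular identifiers give counting error only.

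Correlations took 100000 permutations in Python 3.11.15 with numpy 2.4.6, scipy 1.17.1 and pandas 2.3.3; figures used matplotlib 3.10.9. Alternatives were pseudocounts of 0.1 and 1, no filter and a minimum mean of 5, upper-quartile scaling, edgeR quasi-likelihood and likelihood ratio tests, litter as a random or fixed block, generation as a term, fits of the compared groups alone, leaving out each embryo, and leaving out the 11 deep libraries for the Stra8 relation and the generation test. Chosen after the data were seen were leaving out those libraries in the other results, member pairs included, and the sex-by-generation test. The fits were tested on simulated data. Named genes were the members and Stra8, the most abundant gene of each marker list, and the gene most correlated with each member. Up to 3 genes of each list with the smallest p in the vehicle sex comparison were named too. So were genes of a list called in an exposure comparison. The lists were PRC2 partners, PRC1.6 partners, other PRC1 genes, genes opposing Polycomb marks, MAX partners, E2F family, targets, proliferation and cell type markers. Members and lists were chosen with earlier results of these data known.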

Additional observations from a re-analysis of the deposited data

Results flagged for a closer look

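Among 154 tests, of 11 genes (the members and Stra8) in 14 groups of 4 to 8 embryos, 15 found the highest or lowest embryo far from the others of its group, and chance alone gives about 1 in 20. The 15 fell on 12 embryos, and the explanations were not tested. In F1 females Ring1 was high at 2.50 normalized counts in D2510.2 at 0.2 mg/kg-day and low at 0.489 in the vehicle embryo C4232.9, where L3mbtl2 was also low at 5.99. In F1 males at 0.2 mg/kg-day Eed was high at 587 in C4228.1 and Ring1 low at 0.603 in D1190.2.

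In F2 vehicle embryos L3mbtl2 was high at 16.97 in the female D3133.2 and E2f6 high at 30.04 in the male C4988.2. In F3 females Stra8 was low at 11.4 in E0103.2 at 2 mg/kg-day and at 62.9 in the vehicle embryo D3526.1, and Ring1 was high at 3.05 in the vehicle embryo D3651.2. In F3 males at 0.2 mg/kg-day Ezh2 was low at 71.5 in D1390.1 and Max low at 12.1 in D1390.5. The F3 vehicle male D3402.3 stood apart for 3 members, with Eed high at 521, Suz12 high at 156 and L3mbtl2 low at 7.61.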

How the results depend on the processing

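Fits that left out 1 embryo aside, of 421 values that the alternatives gave for 44 counts of members, 407 stayed within 1.5 times the reported count and 14 moved, and of 281 values for 27 member differences or slopes that passed, 266 kept their direction and call, 15 no longer passed and 0 reversed. Calls lost or gained when 1 embryo was left out stand beside each result. Most of the 44 counts were 0 members called in an exposure or generation comparison, and a 0 that stayed 0 is among the 407. Most of the 14 moves were in counts above 0. For each count that moved the cause was not tested. The count of 0 members called in females at 2 mg/kg-day was 1 with a minimum mean of 5 and 1 in a fit of the compared embryos alone, and 0 to 2 when 1 embryo was left out. The 3 members lower in vehicle males were 1 in each edgeR test. The 2 members called in F1 vehicle embryos were 5 with litter as a random block, 1 without the deep libraries, 1 in the fit alone, and 1 to 3 when 1 embryo was left out. The 1 called in F3 was 3 with litter as a random block, 2 as a fixed block, and 1 to 2 when 1 embryo was left out. The 2 members that rose with Stra8 were 1 with a pseudocount of 0.1, 1 with upper-quartile scaling, 1 without the deep libraries, 0 in vehicle females alone, and 1 to 2 when 1 embryo was left out. The 3 that fell were 1 in the 17 vehicle females alone, where Max had a slope of -0.16 and Eed of -0.012, neither past the test. The correlation of littermates in the random-block fit was 0.262 over all embryos, and 0.382 in F1, 0.0532 in F2 and 0.225 in F3. In vehicle embryos the fixed block kept only the 15 litters with both sexes. Depth limits Ring1, with a median of 12 reads, most. Transcript isoforms, protein levels and chromatin marks were not analysed here. Sex differences rest on whole sorted samples, and a difference of F1 from the later generations cannot be told apart from its dosing window.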

Other observations

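Of 18 other PRC1 genes tested, 3 were higher and 13 lower in vehicle males, where 27.9% and 28.6% of all genes were, with a median of -0.68 on the log2 scale. Cbx8, a reader of the PRC2 mark, had 5.36 to 13.9 normalized counts in vehicle females and 0.390 to 2.86 in vehicle males, with no overlap (-2.03, adjusted p = 1.57e-14). Phc1 went the other way, with 13.4 to 26.4 in vehicle females and 27.9 to 61.5 in vehicle males (1.05, adjusted p = 1.47e-16), and Pcgf5 differed by -1.43 (4.09e-19). Among females 6 of these genes rose and 2 fell with Stra8. Of 7 genes listed as opposing Polycomb marks, 2 were higher and 2 lower in vehicle males, and 3 rose and 0 fell with Stra8. Kdm6a, an H3K27 demethylase gene, differed by -1.02 between the sexes (adjusted p = 5.61e-10), Usp16 by -0.43 (5.14e-06) and Asxl1 by 0.27 (0.0170). Kdm6a lies on chromosome X, and the part of X copy number in its sex difference was not tested.

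Of 8 other partners of MAX, 2 were higher and 1 lower in vehicle males. Mxd4, whose product competes for MAX, had 41.4 to 135 normalized counts in vehicle females and 2.66 to 32.4 in vehicle males, with no overlap (-2.56, adjusted p = 5.92e-14), while Mnt (0.65, 0.000126) and Mycn (0.50, 0.000874) were higher in males. With Stra8, 1 of these genes rose and 3 fell. Of 7 other E2F genes, 3 were higher and 1 lower in vehicle males, with E2f7 at 0.47 (0.00450), E2f4 at 0.62 (0.00932) and E2f2 at -0.46 (0.0235), and 0 rose and 1 fell with Stra8. Of 10 proliferation genes, 3 were higher and 2 lower in vehicle males, with Cdk1 at 0.32 (1.31e-05), Mcm2 at 0.50 (0.000141) and Rrm2 at -0.68 (0.000231). Their summed level ran from 2186 to 3160 in vehicle females and from 1960 to 4311 in vehicle males, with Ccnb1 the most abundant, and 5 fell and 0 rose with Stra8.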
